A study of Homo sapiens with 6 samples.

Results

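The 9 protein-coding genes described here overlapped 1 of 2 H3K9me3 domains that were called in both RAB5A lists and in neither control list of MCF10.DCIS.com monolayers. ADCY2, CFAP90, MTRR and FASTKD3 lay in the domain at chr5:6800001-8800000 (hg38; 2 Mb), and SUDS3, SRRM4, HSPB8, CCDC60 and TMEM233 lay in the domain at chr12:118400001-119600000 (1.2 Mb). They are 9 of the 20033 protein-coding genes of GENCODE 44. The genes were chosen by these calls, so the coverage of their bodies is given as a description and was not tested.

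MCF10.DCIS.com is a human breast line that expresses oncogenic HRAS and serves as a model of ductal carcinoma in situ. Control cells carried the empty lentiviral vector pSLIK-neo-EV, and RAB5A cells carried pSLIK-neo-RAB5A, which expresses RAB5A when doxycycline is added. RAB5A is a GTPase of early endosomes whose elevated expression sets a jammed monolayer in collective, fluid-like motion. Chromatin of each condition was immunoprecipitated once with the antibody ab176916 (replicate 1) and once with ab8898 (replicate 2), which gave 4 domain lists, 1 per library. The control lists held 78 domains with ab176916 and 76 with ab8898, and the RAB5A lists held 79 and 76. The time of induction, and whether the control cells used for ChIP-seq also received doxycycline, are not given in the labels. Both cell populations were selected and stable, and nothing in the labels says that the libraries of a condition came from separate cultures. The comparison asks whether fluidized monolayers differed from control monolayers in constitutive heterochromatin. The study itself reported that the H3K9me3 profile over the genome did not change with RAB5A. By another method, a chromatin fractionation assay, it reported a lower signal in heterochromatin. The lists hold positions and scores alone, so neither the level of RAB5A nor any marker of the cell line could be checked in them.

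H3K9me3, trimethylation of lysine 9 of histone H3, is placed by SUV39H1, SUV39H2 and SETDB1 and is read by HP1 proteins, which compact the nucleosomes that carry it. Broad domains of this mark are known from gene-poor sequence, from clusters of zinc finger genes and from the surroundings of centromeres. Genes inside such domains are often silent, although the mark also covers the bodies of some transcribed genes. A domain call says that a stretch of many bins was enriched over input and does not measure transcription.

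The 4 lists were similar in how many genes they covered. A domain overlapped 1479 genes (7.38%) in the control ab176916 list, 1548 (7.73%) in the control ab8898 list, 1482 (7.4%) in the RAB5A ab176916 list and 1666 (8.32%) in the RAB5A ab8898 list, and 1428 genes were covered in all 4. Genes overlapping a domain in both RAB5A lists and neither control list numbered 11, which is 0.0549% of all protein-coding genes. The opposite pattern, both control lists and neither RAB5A list, held 4 genes (0.02%). Which pattern held more genes depended on the libraries: without RAB5A ab8898 the counts were 13 with the RAB5A pattern and 24 with the control pattern, and without both ab8898 libraries they were 34 and 31. When the lists were parted by antibody instead, 3 genes (0.015%) were found with ab176916 alone and 55 (0.275%) with ab8898 alone, of which 14 were on chromosome X. The RAB5A ab8898 list stood apart from the rest on chromosome X, where it alone held 22.8 Mb of domains with 121 genes. Neither of the 2 domains described here is on that chromosome. Their edges were the same in both RAB5A lists, but this was a condition of their selection and does not measure reproducibility.

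Of the 11 genes, 9 are those of the chromosome 5 and chromosome 12 domains. The other 2 were PDK3 (chrX:24465244-24550466), a kinase of the pyruvate dehydrogenase complex, and PCYT1B (chrX:24558087-24672677), an enzyme of phosphatidylcholine synthesis, and both lay at the edge of a chromosome X domain that was called in all 4 lists. In bins of 200 kb, 20 of 15453 bins (0.129%) were called in both RAB5A lists and neither control list. The chromosome 5 domain made up 10 of these bins and the chromosome 12 domain 6. The opposite pattern held 11 bins (0.0712%). The 2 domains with the 9 genes were the only whole domains with the RAB5A pattern, since the other 3 segments, of 0.2 to 0.4 Mb, were parts of longer domains.

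The promoters of 4 members whose start sites lay inside the domains are shown because their CpG dinucleotides, in capitals, ran in number from 11 to 40. Each line gives the 250 bases before the RefSeq transcription start (GRCh38.p14, the hg38 assembly), read 5′ to 3′ on the coding strand. The stretches are chr5:7395888-7396137 for ADCY2, chr12:118981291-118981540 for SRRM4, chr12:119178681-119178930 for HSPB8 and chr12:119334479-119334728 for CCDC60, and all 4 are on the plus strand.
ADCY2: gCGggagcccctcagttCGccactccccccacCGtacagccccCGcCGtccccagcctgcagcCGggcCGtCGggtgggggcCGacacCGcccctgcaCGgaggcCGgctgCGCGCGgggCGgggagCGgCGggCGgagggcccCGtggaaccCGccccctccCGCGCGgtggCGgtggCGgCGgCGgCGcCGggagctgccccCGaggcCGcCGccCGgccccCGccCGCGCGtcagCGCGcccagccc
SRRM4: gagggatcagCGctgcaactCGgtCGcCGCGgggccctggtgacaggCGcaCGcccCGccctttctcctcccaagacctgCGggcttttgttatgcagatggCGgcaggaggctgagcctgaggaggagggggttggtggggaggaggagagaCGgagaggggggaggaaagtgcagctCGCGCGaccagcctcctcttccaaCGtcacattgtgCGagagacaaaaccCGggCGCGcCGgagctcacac
HSPB8: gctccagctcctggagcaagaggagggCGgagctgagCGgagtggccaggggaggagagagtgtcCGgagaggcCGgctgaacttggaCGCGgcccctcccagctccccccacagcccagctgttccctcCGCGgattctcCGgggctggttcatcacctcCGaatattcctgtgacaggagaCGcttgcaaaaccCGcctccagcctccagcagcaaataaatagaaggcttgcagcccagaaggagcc
CCDC60: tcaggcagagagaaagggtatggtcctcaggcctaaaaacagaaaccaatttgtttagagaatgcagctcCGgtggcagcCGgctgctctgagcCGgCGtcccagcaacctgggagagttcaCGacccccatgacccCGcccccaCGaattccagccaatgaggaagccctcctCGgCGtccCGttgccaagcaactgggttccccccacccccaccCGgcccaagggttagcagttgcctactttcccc

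RefSeq promoters were matched for 7 of the 9 members and for 15843 protein-coding genes in all, whose promoters held a median of 17 CpG dinucleotides and had a median GC content of 62.4%. The ADCY2 promoter held 40 CpG dinucleotides at a GC content of 85.2%, more than 97.3% of all promoters. Those of SUDS3, FASTKD3, SRRM4 and CFAP90 held 29, 27, 20 and 18, all above the median. HSPB8 with 12 and CCDC60 with 11 were below it, and 35.5% and 33.4% of all promoters held fewer, respectively. CpG-rich promoters are, as a class, mostly unmethylated in DNA and open in many cell types.

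4 short motifs were searched on both strands of the same 250 bases. The GC box GGGCGG, to which SP1 binds, was present in 6 of the 7 member promoters, all but that of CFAP90, and in 56.0% of all promoters. It occurred 6 times before ADCY2, 2 times each before FASTKD3 and SUDS3, and 1 time each before SRRM4, HSPB8 and CCDC60. The CCAAT box occurred in 2 copies each before CCDC60 and FASTKD3, against at least 1 copy in 34.5% of all promoters. The core of the heat shock element, GAANNTTC, occurred once before HSPB8, a small heat shock protein, and in 4.81% of all promoters. TATAAA was in none of the 7 promoters and in 9.23% of all. A match is a match of letters and says nothing of binding in these cells.

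Of the 9 members, 7 were covered over their whole length in both RAB5A lists and 2 in part, and none was covered in either control list. All 4 genes of chromosome 5 were covered in full. ADCY2 (ENSG00000078295.17) encodes adenylyl cyclase 2, a membrane enzyme that makes cyclic AMP and is known mostly from brain. Its body at chr5:7396138-7830081, plus strand, was 0% covered in control ab176916, 0% in control ab8898, 100% in RAB5A ab176916 and 100% in RAB5A ab8898. At 433.9 kb, against a median of 27.5 kb over protein-coding genes, it took up 21.7% of the domain. Of that length 98.5% is intron, around 25 exons of the canonical transcript. Its start site was 0.796 Mb from the nearest domain in both control lists.

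The other 3 genes of chromosome 5 form a cluster next to the end of ADCY2. CFAP90 (ENSG00000215217.7), one of the cilia and flagella associated proteins, lies at chr5:7830378-7851151 on the minus strand and ends 296 bases from the end of ADCY2. MTRR (ENSG00000124275.15, chr5:7851186-7906025, plus strand) encodes methionine synthase reductase, which restores the cobalamin cofactor of methionine synthase to its active state. FASTKD3 (ENSG00000124279.12, chr5:7859159-7869037, minus strand) encodes a mitochondrial protein of the FASTK family, which acts on mitochondrial RNA. The bodies of these 3 genes were 20.8, 54.8 and 9.88 kb long, and each was at 0% in both control lists and at 100% in both RAB5A lists.

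These 3 genes share start regions. The canonical starts of MTRR and FASTKD3 lie head to head, 117 bases apart, and the whole body of FASTKD3 lies within the span annotated for MTRR on the opposite strand. The first annotated start of MTRR is likewise 35 bases from that of CFAP90. All 3 canonical starts fell within 1 bin of 200 kb, which also held the end of ADCY2, so the calls cannot tell these genes apart. In both control lists the start of CFAP90 was 1.25 Mb from the nearest domain, and the starts of MTRR and FASTKD3 were each 1.27 Mb away.

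On chromosome 12, 3 of the 5 genes were covered in full. SRRM4 (ENSG00000139767.10, chr12:118981541-119163051, plus strand, 181.5 kb, 13 exons) encodes a splicing factor that includes microexons in neurons. HSPB8 (ENSG00000152137.8, chr12:119171555-119224855, plus strand, 53.3 kb, 3 exons) encodes a small heat shock protein that works with the co-chaperone BAG3 in the removal of damaged proteins. CCDC60 (ENSG00000183273.7, chr12:119334712-119541040, plus strand, 206.3 kb, 14 exons) encodes a coiled-coil protein of little known function. Each of the 3 was 0% covered in both control lists and 100% covered in both RAB5A lists. The end of SRRM4 and the first annotated start of HSPB8 are 8.503 kb apart.

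The remaining members lay at the edges of the chromosome 12 domain. SUDS3 (ENSG00000111707.12, chr12:118376555-118418033, plus strand) encodes a subunit of the SIN3 corepressor complex, which removes acetyl groups from histones through HDAC1 and HDAC2. It was 0% covered in both control lists and 43.5% covered in both RAB5A lists, which is 18.0 of its 41.5 kb at the end of the gene. Its start site was 0.0234 Mb outside the domain, so SUDS3 was the only member whose canonical start was not inside. TMEM233 (ENSG00000224982.4, chr12:119593774-119643075, plus strand), a membrane protein of the dispanin family, was 0% covered in both control lists and 12.6% covered in both RAB5A lists, 6.23 of its 49.3 kb. Its start was inside, 0.00623 Mb from the right edge.

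The edges are multiples of 200 kb, and the coverage of SUDS3 and TMEM233 is set by where such a multiple falls in the gene. Moving the right edge inward by 1 bin would place TMEM233 outside, and moving it outward by 1 bin would cover it in full. The nearest protein-coding genes beyond the edges were TAOK3, which encodes a stress-responsive kinase and lies 27.1 kb to the left on the minus strand, its start nearest to the domain, and PRKAB1, which encodes a subunit of AMP-activated protein kinase and starts 67.9 kb to the right. On chromosome 5 they were TENT4A, a non-canonical poly(A) polymerase, 43.0 kb to the left, and SEMA5A, a guidance semaphorin, 235 kb to the right. All 4 were 0% covered in all 4 lists.

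**Figure D1:**
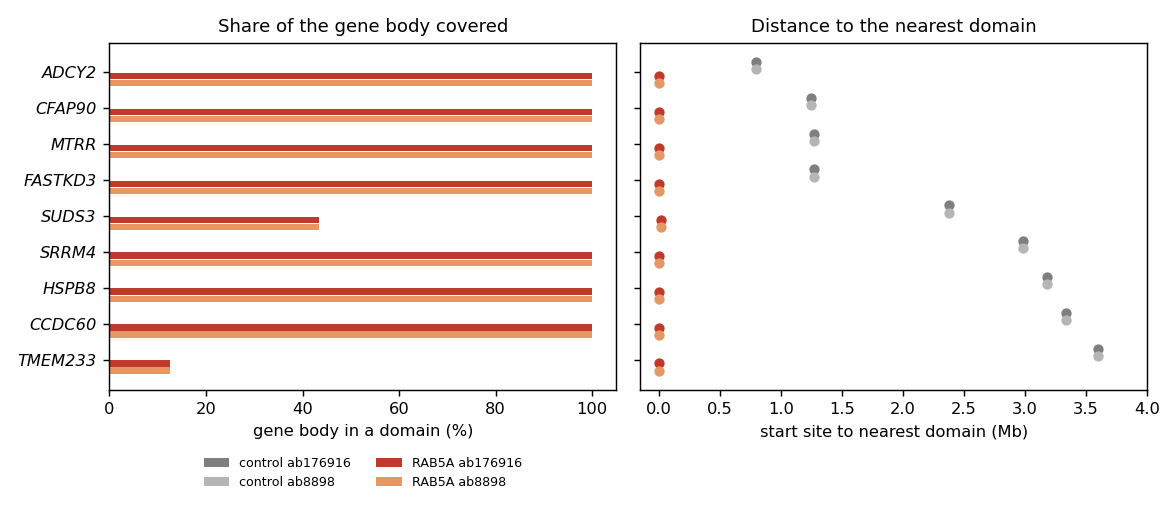
Left, share of each member's gene body inside a domain (%), with 1 bar per list; bars of the control lists have no length because their values are 0. Right, distance from the canonical start site to the nearest domain (Mb), with 1 point per list; the points of the control lists run from 0.796 Mb for ADCY2 to 3.59 Mb for TMEM233, while those of the RAB5A lists are at 0 except SUDS3 at 0.0234 Mb.

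The distances to the nearest domain in the control lists set the members of the 2 chromosomes apart. On chromosome 5 they were between 0.796 and 1.27 Mb, and on chromosome 12 they rose with position from 2.38 Mb for SUDS3 over 2.98 Mb for SRRM4, 3.18 Mb for HSPB8 and 3.33 Mb for CCDC60 to 3.59 Mb for TMEM233. Each distance was the same in the 2 control lists, since the nearest domain had the same edge in both. The chromosome 5 genes thus lay near sequence that was called in every library, and the chromosome 12 genes did not.

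The chromosome 5 domain was separated by 0.2 Mb, a single bin, from a long domain on its left that was called in all 4 lists. In control ab176916 and in both RAB5A lists that neighbour was 1 domain at chr5:2000001-6600000, and in control ab8898 it was split into chr5:2000001-3800000 and chr5:4600001-6600000. IRX2 and IRX1, transcription factors of the Iroquois family, the protease gene ADAMTS16, ICE1, MED10 and UBE2QL1 were covered in full in all 4 lists. The bin between the neighbour and the domain held 3 protein-coding genes, SRD5A1, a steroid 5-alpha-reductase, TENT4A and the larger part of NSUN2, an RNA methyltransferase that was 2.24% covered in all 4 lists. To the right, no domain followed for 151.8 Mb in any list.

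When domains less than 400 kb apart were joined, the chromosome 5 domain and its left neighbour became 1 domain at chr5:2000001-8800000 (6.8 Mb) in both RAB5A lists. Under that setting SRD5A1 and TENT4A also had the RAB5A pattern, which brought the count from 11 to 13 genes. Whether the chromosome 5 members are written as lying in a domain of their own or in a longer IRX2 and IRX1 domain thus depends on the joining distance.

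**Figure D2:**
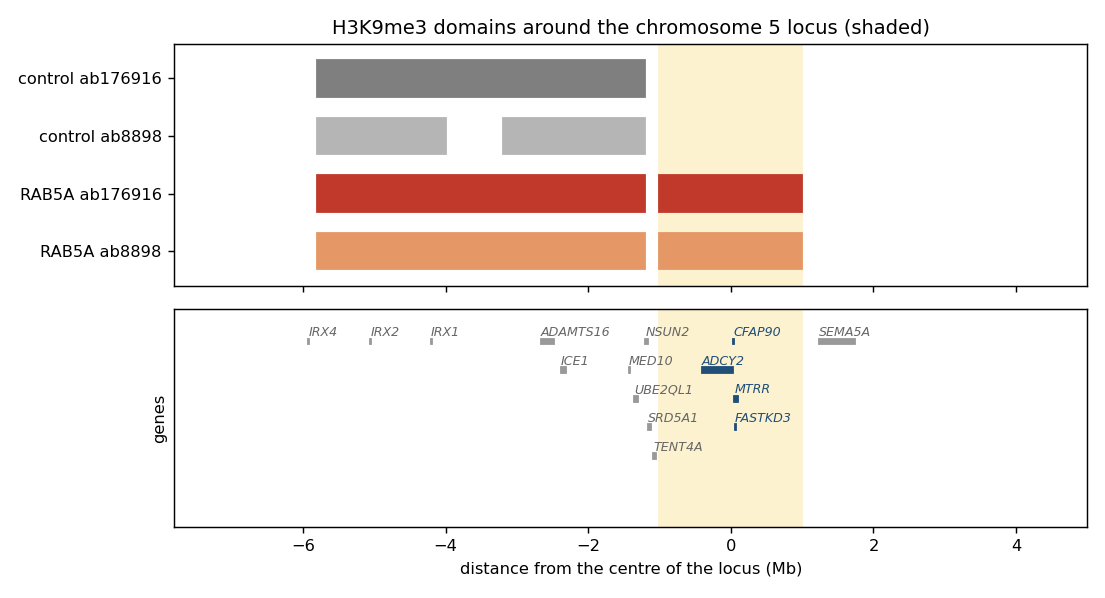
Domains called in each list (top, 1 row per list) and protein-coding genes named in the text (bottom, members in blue), against the distance from the centre of the chromosome 5 domain (Mb), which is shaded. All 4 lists hold the domain on the left, split in control ab8898, and only the RAB5A lists hold the shaded one, which begins 0.2 Mb further on.

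The chromosome 12 domain stood alone. Its left neighbour at chr12:114000001-116000000 was 2.4 Mb away and was called in both control lists and in RAB5A ab176916, but not in RAB5A ab8898. That neighbour held TBX5 and TBX3, T-box transcription factors, which were 100% covered in the 3 lists and 0% covered in RAB5A ab8898, and 13.2% of MED13L. Its right neighbour at chr12:125200001-131800000 was 5.6 Mb away in all 4 lists. No joining at 400 kb changed the chromosome 12 domain.

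**Figure D3:**
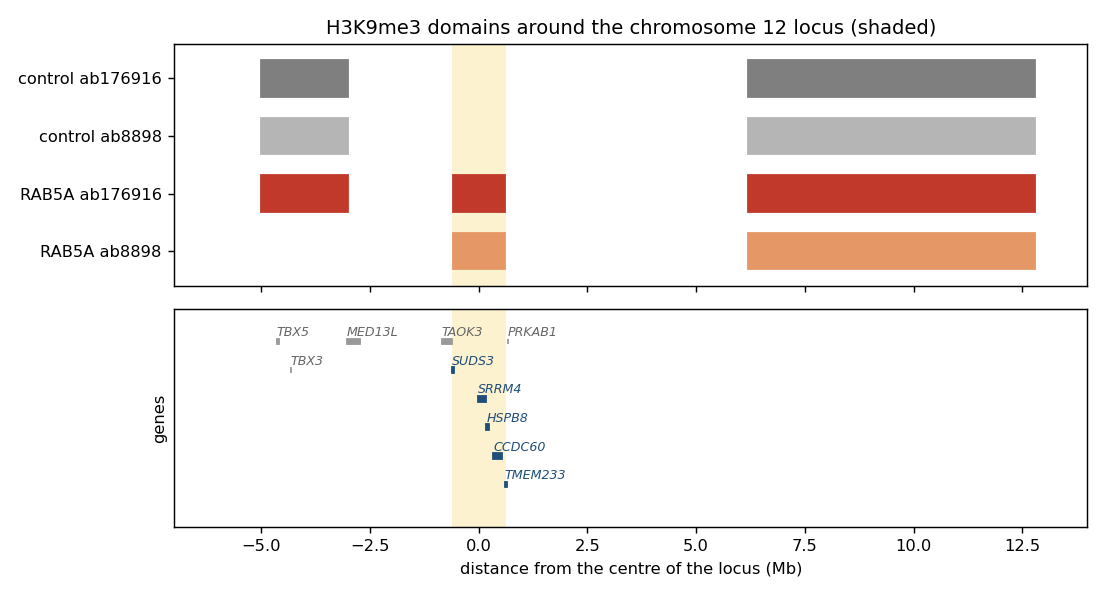
Domains called in each list (top, 1 row per list) and protein-coding genes named in the text (bottom, members in blue), against the distance from the centre of the chromosome 12 domain (Mb), which is shaded. The shaded domain appears in the RAB5A lists alone, the domain on the left is missing from RAB5A ab8898, and the domain on the right is in all 4 lists.

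The sequence around the domains did not enter the choice of the genes, and its coverage was compared between conditions. Within 10 Mb on each side of the chromosome 5 domain, 4.6 Mb were covered in control ab176916, 3.8 Mb in control ab8898 and 4.6 Mb in each RAB5A list. RAB5A exceeded control by 0.4 Mb (SD 0.566 in control and 0 in RAB5A, with n = 2 per condition), and the groups overlapped (p = 1, exact permutation of libraries, two-sided). Around the chromosome 12 domain, 6.4 Mb were covered in both control lists and in RAB5A ab176916, and 4.4 Mb in RAB5A ab8898. The difference of -1 Mb (SD 0 in control and 1.41 in RAB5A, with n = 2 per condition; p = 1 by the same exact permutation) rested on RAB5A ab8898 alone and was 0 Mb without it. When domains below the lower quartile of their list's scores were left out, the differences were 1.3 Mb on chromosome 5 (exact permutation, p = 1) and -2 Mb on chromosome 12, where the groups no longer overlapped (exact permutation, p = 0.333). With 2 libraries against 2 this test cannot give a p below 0.333, so it could not detect a difference of any size. In the comparisons whose groups overlapped, all values but 1 were tied. Every labelling then gave the same absolute difference, so the p there was fixed by the ties.

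Both domains had scores at the low end of their lists. The score is the authors' own, has no stated unit and was ranked within each list alone, with rank 1 the lowest. The chromosome 5 domain had a score of 7.76 and rank 3 of 79 in RAB5A ab176916, and a score of 8.34 and rank 1 of 76 in RAB5A ab8898. Its rank percentile was 2.56 ± 1.75 (SD, n = 2). The chromosome 12 domain had a score of 7.83 and rank 5 of 79, and of 8.53 and rank 3 of 76, a percentile of 5.14 ± 1.68 (SD, n = 2). The medians of the RAB5A lists were 13.3 for ab176916 and 14.4 for ab8898, and the lowest scores in the control lists were 7.58 for ab176916 and 8.89 for ab8898.

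The 2 domains differed once the score was divided by length. Per 200 kb bin, the chromosome 12 domain scored 1.30 in RAB5A ab176916 and 1.42 in RAB5A ab8898, ranks of 58 of 79 and 52 of 76, above most domains. It was among the shortest domains, with rank 2 by length in both lists. The chromosome 5 domain scored 0.776 and 0.834 per bin, ranks of 16 of 79 and 13 of 76, and had rank 21 by length in both. It was thus low in score both in all and per bin, whereas the domain with SRRM4, HSPB8 and CCDC60 was low in its total and not per bin.

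Low scores were found in domains of other patterns too, although that with TBX5 and TBX3 was low in RAB5A ab176916 alone. The domain with TBX5 and TBX3, absent from RAB5A ab8898, had scores of 11.2 (rank 28 of 78) and 12.7 (rank 28 of 76) in the control lists and the lowest of all, 7.35, in RAB5A ab176916. The whole domain called in both control lists alone, with ADARB2 (chr10:1177313-1737525), an ADAR family member found mostly in brain, had rank 6 of 78 and rank 9 of 76. ADARB2 was 96.0% and 100% covered in the control lists and 0% covered in both RAB5A lists. The other genes with the control pattern were GZMH and GZMB, granzyme proteases of cytotoxic lymphocytes, both covered in full, and the neural adhesion gene CHL1, covered over 4.43% of its body. All 3 lay at edges of domains that RAB5A lists also held.

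The domains overlapping neither list of the other condition were mostly those below the lower quartile of their list's scores. They were 4 of 20 such domains in RAB5A ab176916 and 2 of 19 in RAB5A ab8898, the latter being the 2 described here, and 1 of 20 and 1 of 19 in the control lists. At or above the quartile there were 0 of 59, 0 of 57, 1 of 58 and 0 of 57, in the same order. When domains below the quartile were left out, none of the 9 members kept the RAB5A pattern, as both domains were removed. As the lists carry no read counts, whether the domains fell short of the calling threshold in the control libraries was not tested.

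**Figure D4:**
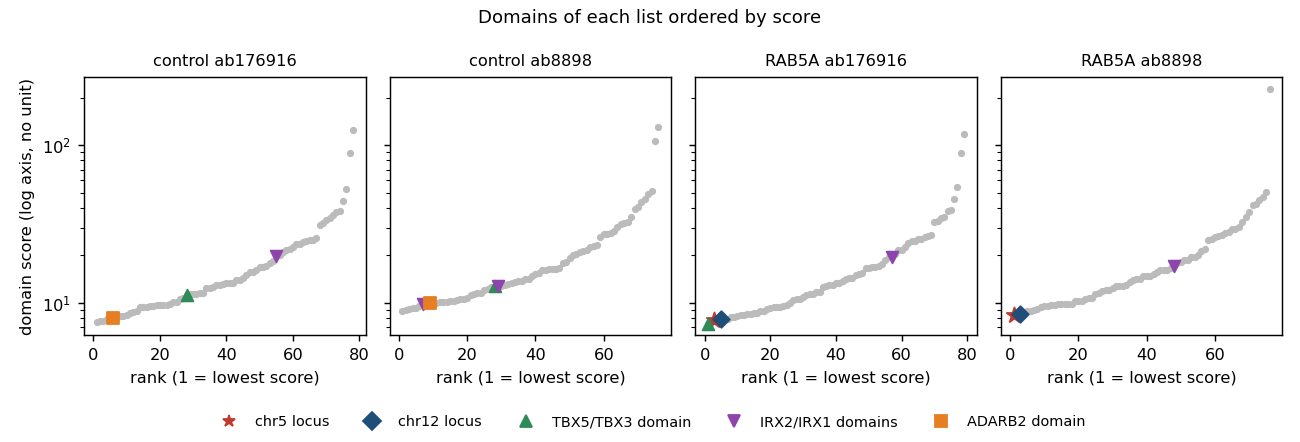
Score of every domain (log axis, no unit) against its rank within its list, from 1 for the lowest, with 1 panel per list. The domain of the chromosome 5 genes (star) and that of the chromosome 12 genes (diamond) sit at ranks 1 to 5 of the RAB5A lists, and the TBX5 and TBX3 domain (green triangle) falls from rank 28 in both control lists to rank 1 in RAB5A ab176916.

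The domains differ in gene content and base composition. Outside protein-coding genes lay 74.5% of the chromosome 5 domain and 61.2% of the chromosome 12 domain, against 56.6% of the autosomes and a median of 70.6% over the 71 autosomal domains of RAB5A ab176916. The longest free stretch was chr5:7906026-8800000 (894.0 kb), from the end of MTRR to the right edge, and chr12:118418034-118981540 (563.5 kb), between SUDS3 and SRRM4. The chromosome 5 domain held 2 protein-coding genes per Mb and the chromosome 12 domain 4.17, against 6.65 over the autosomes. The bin between the chromosome 5 domain and its left neighbour held 15 per Mb.

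With genes of every type counted, 33.9% of the chromosome 5 domain and 42.4% of the chromosome 12 domain lay outside genes, against 40.9% of the autosomes. GENCODE 44 lists 51 genes over the first, of which 22 are long non-coding RNAs, 9 are pseudogenes and 5 are small RNAs, among them MIR4278 and MIR4458. The longest of the non-coding genes was LINC02196 at 379.8 kb. Over the second it lists 24 genes, of which 14 are long non-coding RNAs and 3 are pseudogenes. What counts as gene-free thus depends on the annotation by more than it differs between these domains.

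GC content was 39.9% over the chromosome 5 domain and 43.2% over the chromosome 12 domain, on either side of the autosomal 41.0%. Among the autosomal domains of RAB5A ab176916, ranked from the lowest, these were ranks 22 and 49 of 71, and in RAB5A ab8898 ranks 20 and 45 of 69. The bin with the cluster of CFAP90, MTRR and FASTKD3 had the highest ratio of observed to expected CpG in its domain, 0.246, followed by that with the start of ADCY2, 0.243. The bins to the right of MTRR hold no protein-coding gene, and the ratio there was as low as 0.178. Over the whole domains the ratio was 0.208 and 0.189, against 0.241 over the autosomes.

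**Figure D5:**
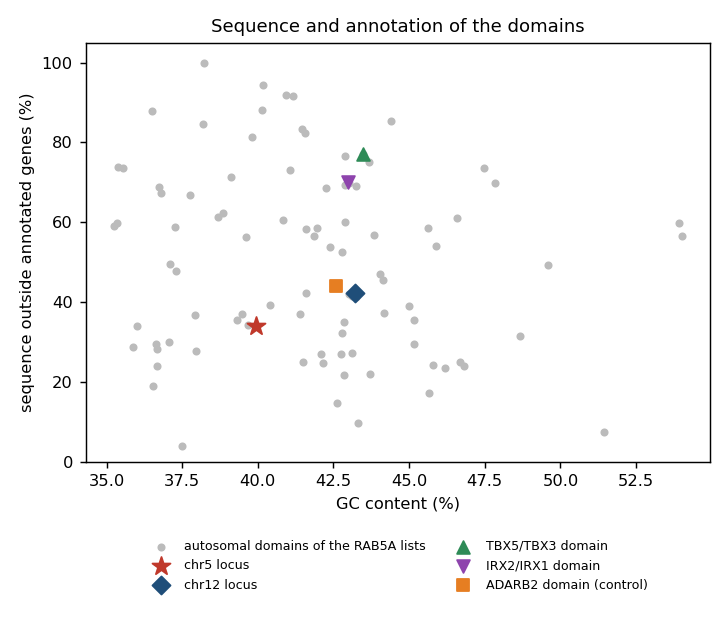
Sequence outside annotated genes of every type (%) against GC content (%) for each autosomal domain of the RAB5A lists (grey) and for the named domains. The chromosome 5 domain (star, 39.9% GC, 33.9% outside genes) and the chromosome 12 domain (diamond, 43.2% GC, 42.4% outside genes) lie within the spread of the other domains.

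Relatives of the members were looked up to see whether whole families or pathways lay in domains. Lists were drawn by family or complex and not by coverage. Of 10 adenylyl cyclases, ADCY2 alone overlapped a domain in any list, and the same held for FASTKD3 among 6 FASTK family genes and for MTRR among 16 genes of methionine synthesis and cobalamin handling. On chromosome 12, SUDS3 alone did so among 16 genes of the SIN3 and HDAC complex, SRRM4 among 5 SR-related matrix protein genes, HSPB8 among 11 small heat shock protein genes and TMEM233 among 13 dispanin genes. The calls of these members were fixed by how they were chosen, and no other gene of the 7 lists overlapped a domain in any library. Of all protein-coding genes, 7.38% to 8.32% overlapped a domain per library. With 5 to 16 genes per list of relatives, the counts do not set a member apart from its family.

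Among 48 cilia and flagella associated protein genes, 2 overlapped a domain in control ab176916 and 3 in each of the other lists. The share over all protein-coding genes was 7.38% to 8.32% per list. CFAP107 on chromosome 1 and CFAP47 on chromosome X were 100% covered in all 4. CFAP52 on chromosome 17 was 65.0% covered in control ab8898 and 0% covered in the other 3 lists. CFAP90 was the only one with the RAB5A pattern, and its own calls were fixed by how it was chosen.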

How the data were processed

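H3K9me3 ChIP-seq of 2 control and 2 RAB5A libraries was analysed, and the 2 input libraries were not analysed here. The labels list 1 input library for each condition and do not say which input each call used. If that input served both lists of its condition, the 2 lists were not independent of each other in this respect, and its effect on the calls was not tested. The authors trimmed reads with Trimmomatic 0.39, aligned them to canonical hg38 chromosomes with BWA 0.7.17-r1188, marked duplicates with Picard 2.22, kept a mapping quality of at least 1 with SAMtools 1.9 and called domains in each library on its own with EDD 1.1.19 (200 kb bins, gap penalty 25, informative fraction 0.98, ENCODE exclusion list). The deposited lists hold the start, the end and a score without a stated unit for each domain. They carry no counts, so depth is unknown and no counting interval can be given.

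Genes were taken from GENCODE 44 and a gene was in a domain when at least 1 base overlapped. Sequences came from hg38 and RefSeq promoters. Calculations used Python 3.11.15, NumPy 2.4.6, SciPy 1.17.1 and Matplotlib 3.10.9. The overlap step was tested on simulated data. Covered length in the flanks was compared between conditions by exact permutation (two-sided, 6 labellings), and nothing that entered the choice of the genes was tested. The 9 members, the lists of relatives and the tests were chosen with earlier results of these data known. Named genes were the members, the nearest protein-coding gene on either side of each domain, the other genes called in both lists of 1 condition alone, and relatives that overlapped a domain. Genes of the neighbouring domains were named after their values were seen.

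Replicate numbers stand for antibodies, as the labels state, and pair the libraries. Over 1736 bins called in any list, deviations from the group means correlated within antibodies with Pearson's r of 0.316 (0.335 over 1084 autosomal bins), given as a description. Replicate spread therefore includes the difference between antibodies. Alternatives were other overlap rules, a score or length minimum, joined domains, widened genes, other ranks, other flank windows, the replicate block and each replicate left out, with single libraries left out added after the data were seen.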

Additional observations from a re-analysis of the deposited data

How the results depend on the processing

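Of 62 alternative values for 10 results, 36 stayed within their limits and 26 moved. Only the flank differences could be scored as reversed, and none of them was. The order of the 2 gene counts was not scored. It turned without RAB5A ab8898, to 13 genes with the RAB5A pattern and 24 with the control pattern. The count of 11 genes with the RAB5A pattern (9 members) became 38 without the lower quartile of scores (0 members), 6 with domains of at least 2 Mb (the 4 of chromosome 5) and 17 with 200 kb added to each gene (9 members). With a replicate or a library left out it ran from 13 without RAB5A ab8898 to 142 without ab176916. It was 21 without control ab176916, 32 without control ab8898, 34 without both ab8898 libraries and 132 without RAB5A ab176916. All 9 members remained each time, which their choice by these calls had fixed in advance. The count of 4 with the control pattern became 12 without the lower quartile and 13 with 200 kb added, and ran from 11 to 31 with a replicate or library left out (17 without control ab176916, 11 without control ab8898, 11 without RAB5A ab176916, 24 without RAB5A ab8898 or without both ab176916 libraries, 31 without both ab8898 libraries).

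The rank percentile of the chromosome 5 domain, 2.56, became 18.7 per bin and 27.1 by length, and that of the chromosome 12 domain, 5.14, became 70.9 and 2.58. The gene-free shares of 74.5% and 61.2% became 33.9% and 42.4% with all annotated genes. The flank differences ran from 0 to 0.8 Mb on chromosome 5 (0 without control ab8898) and from -2 to 0 Mb on chromosome 12 (0 without RAB5A ab8898) with a replicate or library left out.

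With antibodies as the replicate block, the flank differences stayed at 0.4 and -1 Mb, with p = 1 in the exact sign-flip permutation test, whose smallest p is 0.5. The difference within ab176916 was 0 Mb at both domains, so every sign flip gave the same absolute value. Signal below the calling threshold is not in the lists, positions have a resolution of 200 kb, and antibodies are the only replicates. The labels list 1 input library per condition.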
